A study of Mus musculus with 9 samples.

Results

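The genes examined here code for the machinery of DNA replication: origin recognition, helicase loading, the MCM helicase and its activators, the replicative polymerases, the sliding clamp with its loader, Okazaki fragment maturation and RPA. They were chosen by gene symbol, from a list of 43 symbols, and all 43 were found among the 17596 genes of the table. Primary B cells from the spleens of Mb1Cre and Mct1f/f Mb1Cre mice were profiled by RNA sequencing before and after activation in culture. Both genotypes carry Mb1Cre, which is expressed in the B cell lineage, and in Mct1f/f Mb1Cre mice it removes the floxed part of Slc16a1, the gene of the monocarboxylate transporter MCT1. The study asks how MCT1 shapes B cell activation and class switching. The 9 libraries formed 4 groups, namely Mb1Cre without treatment on day 0 (n = 2), Mb1Cre after 3 days with LPS at 10 μg/ml and IL-4 at 50 ng/ml (n = 2), Mct1f/f Mb1Cre without treatment on day 0 (n = 2) and Mct1f/f Mb1Cre after the same 3 days (n = 3). Whether each library came from its own mouse is not stated, so the p-values measure the spread between these libraries, which may be technical. The values are FPKM, fragment numbers scaled by transcript length and by the mapped fragments of the library, so that levels of different genes could be set side by side per length.

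Replication starts at origins bound by the origin recognition complex, ORC. CDC6 and CDT1 load the MCM helicase ring there in G1, and geminin, coded by Gmnn, blocks CDT1 once S phase has begun. The kinases of DBF4 and CDC7, with MCM10, CDC45 and the GINS complex, turn the loaded ring into the moving helicase, after which polymerase alpha primase makes primers and polymerases epsilon and delta extend the leading and lagging strands, held by the clamp PCNA. Resting splenic B cells sit mostly outside the cell cycle, and LPS with IL-4 is a standard way to make them divide.

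The libraries were first checked for identity. Slc16a1 measured 4.33 and 3.80 FPKM in Mb1Cre cells and 3.71 and 4.06 FPKM in Mct1f/f Mb1Cre cells on day 0. On day 3 it reached 22.58 and 22.95 FPKM in Mb1Cre against 10.82, 9.81 and 9.50 FPKM in Mct1f/f Mb1Cre, so the lower level of the targeted gene was seen on day 3. The B cell genes Cd79a, a part of the B cell receptor, and Pax5, a transcription factor of the lineage, were present in every library. Cd79a lay between 1573 and 1714 FPKM on day 0 and between 502 and 575 FPKM on day 3, and Pax5 between 150 and 167 FPKM and between 84.6 and 98.7 FPKM. Summed markers of other cells fell between the days, from 997–1766 to 14.9–25.4 FPKM for 6 myeloid genes, from 34.1–39.4 to 1.43–1.83 FPKM for 6 T and NK cell genes and from 125–231 to 4.34–7.95 FPKM for 6 erythroid genes. The Y-linked gene Ddx3y was near 0 in both Mb1Cre day 0 libraries (0.24 and 0.02 FPKM) and in replicate 2 of Mct1f/f Mb1Cre day 0 (0.20 FPKM), against 31.1 FPKM in replicate 1 of that group and 14.7 to 16.9 FPKM in all day 3 libraries. Sex and activation therefore cannot be told apart in Mb1Cre cells. Between libraries of a group, Pearson's r over genes was 0.993 to 0.998.

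The promoters of the genes are shown first, as a description. RefSeq promoters (GRCm38.p6, the build named for the data) were at hand for 35 of the 43 genes, some with several start sites, which gave 44 windows of the 250 bases before a start. They were searched on both strands for the E2F words TTTCCCGC, TTTCGCGC, TTTGCCGC and TTTGGCGC, for the CCAAT box (CCAAT) and for the CHR word TTTGAA. Sites of this kind are known from cell cycle promoters, where E2F factors bind the first, NF-Y the second and the DREAM and MuvB complexes the third. An E2F word lay in 9 of the 44 windows, each from another gene, a share of 20.5% against 1.86% of all 32851 windows in the table. The CCAAT box was found in 50.0% of the members' windows against 33.8% of all windows, and the CHR word in 13.6% against 16.0%. Of the 9 genes with an E2F word, 8 were among the 27 genes with a window that rose on activation and 1, Orc3, was among the 8 that did not pass. The windows were not matched for base composition, and a link between these words and activation was not tested. Below are the promoters of the genes with a single start and the largest (Cdc45, Mcm10) or smallest (Pold1, Rfc1) activation change in Mb1Cre on the log2(FPKM + 1) scale, of Orc1, added after its values were seen because its ratio of mean FPKM was the largest, of Pole2, which had the smallest p between the genotypes on day 3, and of Mcm6, added after the search because it held the most E2F words, with 3 in its window. Capitals mark matches, a match on the opposite strand reads as its reverse complement (ATTGG for CCAAT), and each sequence runs 5′ to 3′ along the gene's strand and ends at the base before the start.
Cdc45 (chr16:18811973-18812222, minus strand): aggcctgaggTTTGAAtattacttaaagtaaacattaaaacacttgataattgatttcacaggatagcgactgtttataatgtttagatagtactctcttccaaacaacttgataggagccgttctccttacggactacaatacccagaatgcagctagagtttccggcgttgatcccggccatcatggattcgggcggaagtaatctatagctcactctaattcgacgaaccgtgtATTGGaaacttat
Mcm10 (chr2:5012792-5013041, minus strand): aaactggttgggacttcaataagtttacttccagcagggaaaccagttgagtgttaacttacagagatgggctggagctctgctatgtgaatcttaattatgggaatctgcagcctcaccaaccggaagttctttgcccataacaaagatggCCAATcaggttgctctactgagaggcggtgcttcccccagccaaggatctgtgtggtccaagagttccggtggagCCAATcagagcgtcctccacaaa
Orc1 (chr4:108579204-108579453, plus strand): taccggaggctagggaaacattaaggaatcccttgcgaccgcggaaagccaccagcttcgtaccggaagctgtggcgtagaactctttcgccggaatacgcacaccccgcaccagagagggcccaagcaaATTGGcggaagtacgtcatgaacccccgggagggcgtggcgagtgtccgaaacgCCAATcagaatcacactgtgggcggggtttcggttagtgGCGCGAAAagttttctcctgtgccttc
Pold1 (chr7:44548816-44549065, minus strand): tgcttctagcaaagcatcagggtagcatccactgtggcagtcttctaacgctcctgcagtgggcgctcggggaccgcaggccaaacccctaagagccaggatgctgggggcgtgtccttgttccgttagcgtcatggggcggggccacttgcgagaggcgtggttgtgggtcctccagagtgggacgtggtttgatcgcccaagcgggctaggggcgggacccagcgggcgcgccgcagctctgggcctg
Rfc1 (chr5:65335640-65335889, minus strand): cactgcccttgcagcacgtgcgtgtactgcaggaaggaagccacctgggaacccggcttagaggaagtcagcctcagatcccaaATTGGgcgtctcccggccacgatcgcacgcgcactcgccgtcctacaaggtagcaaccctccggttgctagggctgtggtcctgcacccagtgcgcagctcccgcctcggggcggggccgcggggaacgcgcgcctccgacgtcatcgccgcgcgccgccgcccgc
Pole2 (chr12:69228191-69228440, minus strand): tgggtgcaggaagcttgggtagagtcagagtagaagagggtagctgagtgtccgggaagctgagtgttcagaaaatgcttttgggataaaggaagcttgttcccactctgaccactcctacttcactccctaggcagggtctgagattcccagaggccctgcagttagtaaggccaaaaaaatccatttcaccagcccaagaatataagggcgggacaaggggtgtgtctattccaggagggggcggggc
Mcm6 (chr1:128359706-128359955, minus strand): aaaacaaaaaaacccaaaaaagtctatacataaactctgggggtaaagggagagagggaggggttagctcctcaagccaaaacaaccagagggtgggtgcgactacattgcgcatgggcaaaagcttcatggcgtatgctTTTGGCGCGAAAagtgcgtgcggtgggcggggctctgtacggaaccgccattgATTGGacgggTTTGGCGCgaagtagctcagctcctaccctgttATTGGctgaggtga
The Mcm6 window holds an overlapping pair of E2F words, which begin 110 and 106 bases before the start, and another that begins 47 bases before it, close to a CCAAT box at 57. Cdc45 and Mcm10 show CCAAT boxes and, for Cdc45, a CHR word 240 bases before the start, but no E2F word. Orc1 has an E2F word 27 bases before the start and CCAAT boxes at 120 and 66. No match was found for Pold1 or Pole2, and Rfc1 has 1 CCAAT box at 166. The words are letters only, and a window without them leaves other sites unexamined.

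Activation raised most of the machinery in both genotypes. Between day 0 and day 3, 35 of 43 genes rose in Mb1Cre cells and 35 of 43 in Mct1f/f Mb1Cre cells, with none lower (limma on log2(FPKM + 1); a call needs a log2 difference above 0.5 in size and an adjusted p under 0.05). Of all 10823 genes tested, 24.8% were called higher in Mb1Cre and 23.4% in Mct1f/f Mb1Cre by the same rule. The median log2 difference of the 43 genes was 1.69 in Mb1Cre and 1.52 in Mct1f/f Mb1Cre, while that of all genes was −0.12 and −0.14. All day 3 libraries lay above those of day 0 for 40 of the 43 genes in each genotype, against 40.4% of all genes in Mb1Cre and 38.3% in Mct1f/f Mb1Cre. The genes' share of all FPKM went from 0.157–0.169% in the day 0 libraries to 0.385–0.399% in the day 3 libraries. In bulk RNA a larger share of replicating cells and more transcript per cell cannot be told apart. The fall in markers of other cells moved with the same contrast, and its part was not tested. In Mct1f/f Mb1Cre cells the count was 36 without day 0 replicate 2, the library with low Ddx3y, and 33 without replicate 1.

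**Figure D1:**
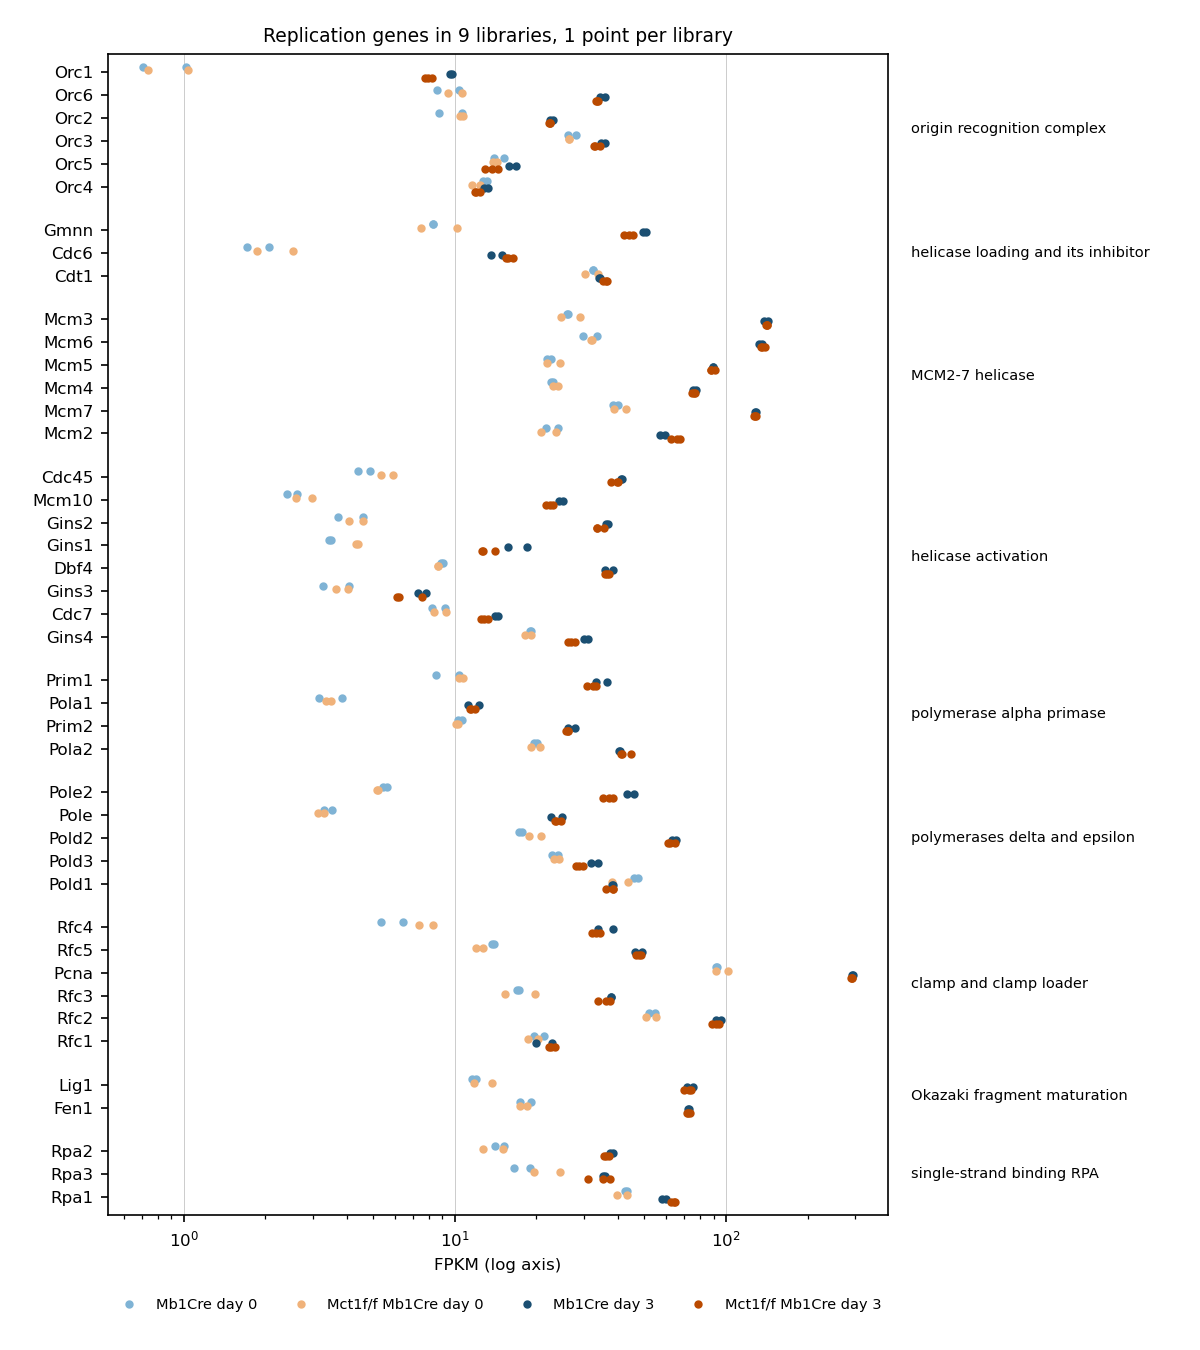
FPKM of the 43 replication genes on a log axis, with 1 point per library, grouped by role; light points are day 0, dark points day 3, blue Mb1Cre and orange Mct1f/f Mb1Cre. The day 3 points sit to the right of the day 0 points for most genes, while those of Orc4, Orc5, Cdt1, Pold1 and Rfc1 lie close together.

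The genes that did not pass were the same in both genotypes except for a pair. Orc3, Orc4, Orc5, Cdt1, Pold1, Pold3 and Rfc1 were not called in either genotype. Rpa1 was short of the size limit in Mb1Cre (0.46 ± 0.05 SE) and past it in Mct1f/f Mb1Cre (0.62 ± 0.04), and Cdc7 was past it in Mb1Cre (0.65 ± 0.07) and just short of it in Mct1f/f Mb1Cre (0.49 ± 0.06). The difference between genotypes had an adjusted p of 0.169 for Rpa1 and 0.304 for Cdc7 (limma, interaction), so neither was shown to differ. With no size limit, 39 genes were higher and 1 lower in Mb1Cre, where 37% of all genes were higher, and 40 were higher in Mct1f/f Mb1Cre, where 36.4% of all genes were.

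**Figure D2:**
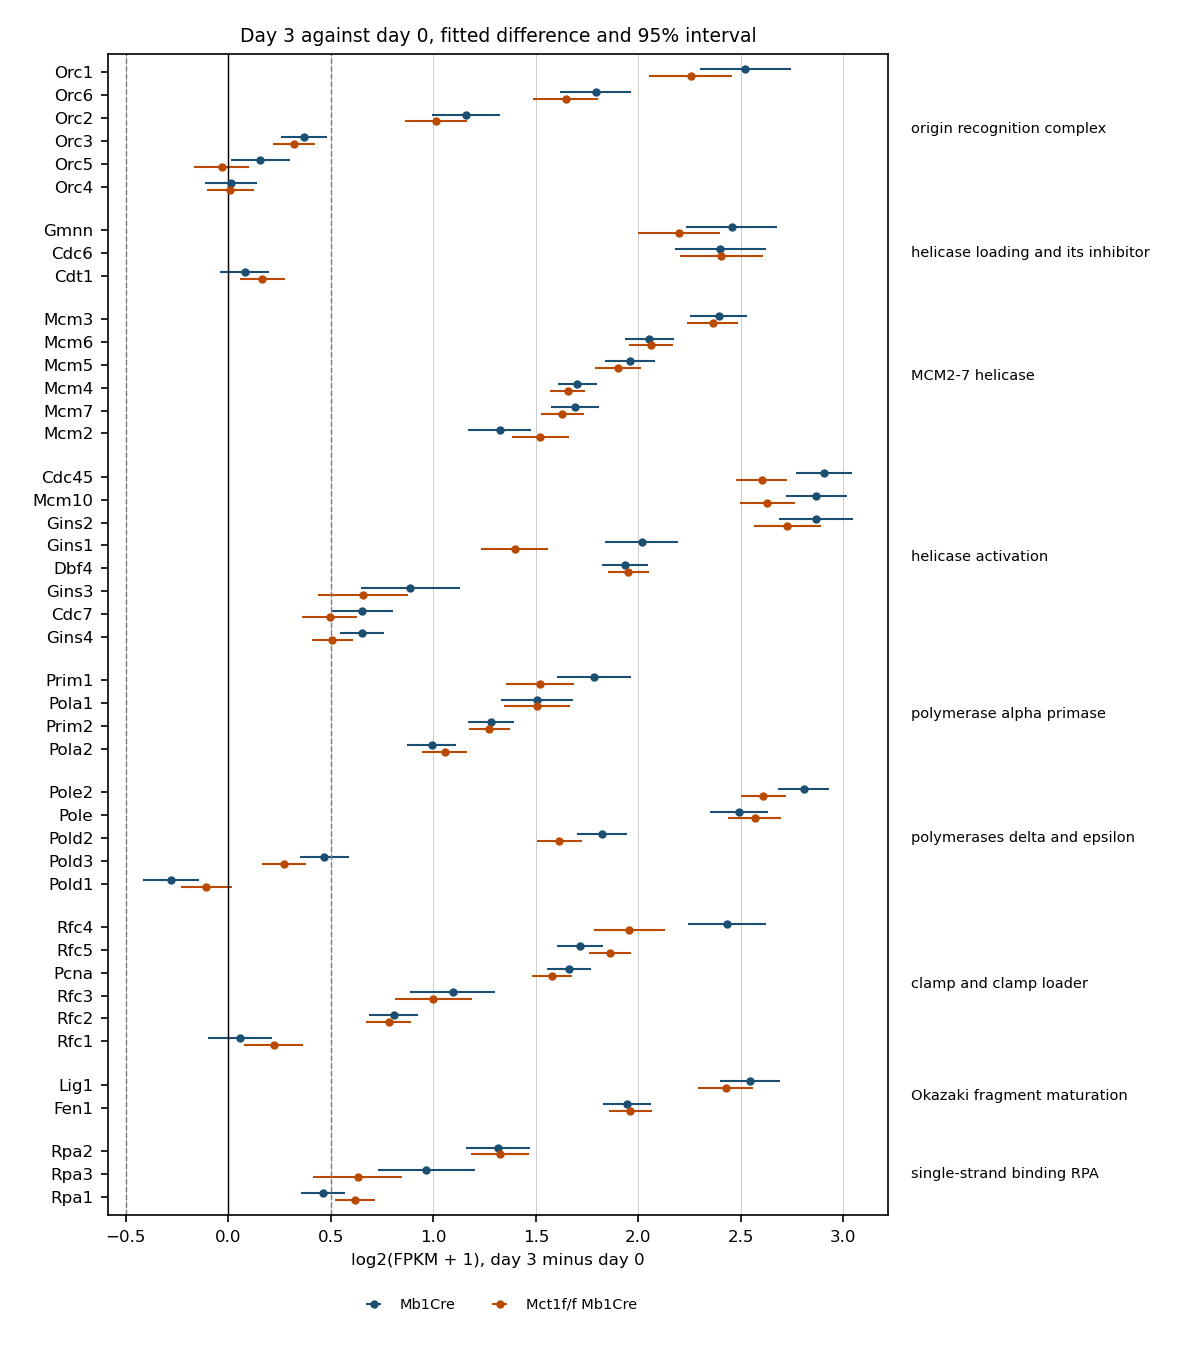
Fitted day 3 minus day 0 difference of log2(FPKM + 1) with its 95% interval for each gene, blue for Mb1Cre and orange for Mct1f/f Mb1Cre; dashed lines stand at −0.5 and 0.5. The largest differences were those of Cdc45 in Mb1Cre (2.91) and Gins2 in Mct1f/f Mb1Cre (2.73), and Pold1 lay below 0 in both (−0.28 and −0.11).

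The 6 ORC genes divided evenly, with Orc1, Orc2 and Orc6 rising in both genotypes and Orc3, Orc4 and Orc5 short of the limit. Orc1, the ATPase subunit whose level is known to follow the cell cycle, went from 1.02 and 0.71 FPKM to 9.58 and 9.76 FPKM in Mb1Cre. Its Mct1f/f Mb1Cre libraries held 0.74 and 1.04 FPKM, then 7.97, 8.25 and 7.77 FPKM. Orc1 thus had the lowest day 0 level of the 43 genes and rose 11.2-fold in mean FPKM in Mb1Cre, by 2.52 ± 0.10 on the log2 scale (adjusted p = 9.72e-10, limma), and by 2.26 ± 0.09 in Mct1f/f Mb1Cre. Orc4, a core subunit, read 13.13 and 12.70 FPKM before and 13.29 and 12.78 FPKM after activation in Mb1Cre. It read 12.40 and 11.57 FPKM, then 11.83, 11.97 and 12.39 FPKM, in Mct1f/f Mb1Cre. The days overlapped for Orc4 in both genotypes, with log2 differences of 0.01 (95% interval −0.11 to 0.14) and 0.01 (−0.11 to 0.12). The direction of this small difference depends on scaling: with every library brought to the same total it was −0.18 in Mb1Cre and −0.16 in Mct1f/f Mb1Cre. Orc2 and Orc6 rose by 1.16 and 1.79 in Mb1Cre and by 1.01 and 1.65 in Mct1f/f Mb1Cre. Orc3, the most abundant of ORC2 to ORC5 in every group, differed by 0.37 and 0.32 between the days, with adjusted p of 3.31e-05 and 4.81e-05 (limma) but short of the size limit.

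Of the helicase loaders and their inhibitor, Cdc6 and Gmnn rose and Cdt1 stayed close to its day 0 level. Cdc6, the ATPase that loads MCM rings with ORC, went from 2.06 and 1.71 FPKM to 13.55 and 14.88 FPKM in Mb1Cre. The Mct1f/f Mb1Cre values were 1.87 and 2.53 FPKM and then 15.43, 15.77 and 16.36 FPKM. Its log2 difference was 2.40 in each genotype (SE 0.10 and 0.09). Gmnn, the inhibitor of CDT1, went from 8.31 and 8.30 FPKM to 50.69 and 49.30 FPKM in Mb1Cre, and 7.51 and 10.20 FPKM, then 45.45, 42.23 and 43.84 FPKM, in Mct1f/f Mb1Cre. It rose by 2.45 ± 0.10 and 2.20 ± 0.09 on the log2 scale. Cdt1, the partner of CDC6 in loading, measured 32.39 and 32.28 FPKM before and 34.11 and 34.39 FPKM after activation in Mb1Cre, and 30.10 and 33.68, then 35.15, 36.06 and 36.35 FPKM, in Mct1f/f Mb1Cre. Its log2 difference was 0.08 (95% interval −0.04 to 0.20) in Mb1Cre and 0.17 (0.06 to 0.28) in Mct1f/f Mb1Cre. The ratio of Gmnn to Cdt1 therefore went from 0.257 in both Mb1Cre day 0 libraries to 1.43 and 1.49 on day 3, and from 0.250 and 0.303 to 1.17–1.29 in Mct1f/f Mb1Cre. The transcript of the inhibitor was below that of its target before activation and above it afterwards in every library. The day 3 ratios of the genotypes did not overlap, but the ratio was not tested. On that day the levels of 47.1% of all genes did not overlap either. Gmnn itself differed by −0.19 between the genotypes on day 3 (adjusted p = 0.206, limma), and without day 0 replicate 1 or 2 of Mct1f/f Mb1Cre that adjusted p was 0.0248 or 0.0254. Its interaction of −0.26 (adjusted p = 0.269, limma) became −0.45 (adjusted p = 0.0116) without the former.

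All 6 genes of the MCM2-7 helicase, the ring that unwinds the origin, rose in both genotypes. Mcm3 rose most, from 26.06 and 25.97 FPKM to 142.75 and 138.69 FPKM in Mb1Cre and from 24.60 and 28.86 FPKM to 141.19, 140.70 and 141.77 FPKM in Mct1f/f Mb1Cre. Mcm2 rose least in Mb1Cre, from 24.05 and 21.61 FPKM to 57.30 and 59.75 FPKM, with 20.82 and 23.54 FPKM, then 66.12, 62.78 and 67.56 FPKM, in Mct1f/f Mb1Cre. The log2 difference was 2.39 ± 0.06 for Mcm3 and 1.32 ± 0.07 for Mcm2 in Mb1Cre, and 2.36 ± 0.06 and 1.52 ± 0.06 in Mct1f/f Mb1Cre. Mcm4, Mcm5, Mcm6 and Mcm7 lay between them, at 1.70, 1.96, 2.05 and 1.69 in Mb1Cre. Although the protein ring takes each subunit once, the transcripts spread further apart with activation: group means ran from 22.3 FPKM (Mcm5) to 39.2 FPKM (Mcm7) in Mb1Cre on day 0 and from 58.5 FPKM (Mcm2) to 140.7 FPKM (Mcm3) on day 3. The ratio of Mcm3 to Mcm2 was 1.08 to 1.23 in the 4 day 0 libraries and 2.10 to 2.49 in the 5 day 3 libraries.

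The activators of the helicase held the 3 largest changes of the 43 genes in Mb1Cre on the log2(FPKM + 1) scale, while Orc1 had the largest ratio of mean FPKM. All 8 rose in Mb1Cre and 7 of 8 in Mct1f/f Mb1Cre, where Cdc7 missed the size limit. Cdc45, a part of the active CMG helicase, went from 4.86 and 4.41 FPKM to 40.89 and 41.50 FPKM in Mb1Cre, an 8.89-fold ratio of means and a log2 difference of 2.91 ± 0.06 (adjusted p = 1.16e-11, limma). The Mct1f/f Mb1Cre libraries held 5.33 and 5.89 FPKM of Cdc45, then 37.69, 39.55 and 40.03 FPKM. Mcm10, which helps to activate the ring, and Gins2, a GINS subunit, each changed by 2.87 in Mb1Cre and by 2.63 and 2.73 in Mct1f/f Mb1Cre. Gins4, another GINS subunit and the gene with the smallest change here in Mb1Cre, rose from 19.11 and 18.93 FPKM to 30.91 and 30.04 FPKM in Mb1Cre and from 18.22 and 19.03 FPKM to 26.89, 27.66 and 26.08 FPKM in Mct1f/f Mb1Cre. Its log2 difference was 0.65 ± 0.05 and 0.51 ± 0.04, and without day 0 replicate 1 or day 3 replicate 2 of Mct1f/f Mb1Cre the latter was 0.48 and 0.49, short of the limit. The 4 GINS genes thus rose by unlike amounts, and the highest of their mean levels changed from Gins4 on day 0 (19.0 FPKM in Mb1Cre) to Gins2 on day 3 (36.4 FPKM). Gins3, with the lowest day 3 level of the 43 genes, rose by 0.89 and 0.65. The kinase pair differed too, with the activating subunit Dbf4 at 1.93 and 1.95 and the catalytic subunit Cdc7 at 0.65 and 0.49. Cdc7 did pass in Mct1f/f Mb1Cre without day 0 replicate 2 (0.56) or day 3 replicate 1 (0.51).

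Polymerase alpha primase, which makes the primers, rose with all 4 subunits in both genotypes. Prim1, the catalytic primase subunit, rose most, from 10.40 and 8.50 FPKM to 33.27 and 36.36 FPKM in Mb1Cre and from 10.40 and 10.70 FPKM to 33.25, 30.74 and 32.45 FPKM in Mct1f/f Mb1Cre. Pola2, the accessory subunit of polymerase alpha, rose least, from 19.61 and 20.07 FPKM to 40.54 and 40.29 FPKM and from 19.10 and 20.56 FPKM to 41.27, 41.07 and 44.48 FPKM. The log2 differences were 1.78 and 1.52 for Prim1 and 0.99 and 1.05 for Pola2, in Mb1Cre and Mct1f/f Mb1Cre respectively. Pola1, the catalytic subunit of polymerase alpha, rose by 1.51 in each, and Prim2, the large primase subunit, by 1.28 and 1.27.

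Polymerases delta and epsilon held both large rises and the lowest activation difference of the 43 genes. Pole2, the second subunit of polymerase epsilon, went from 5.44 and 5.60 FPKM to 45.89 and 43.31 FPKM in Mb1Cre, and 5.18 and 5.21 FPKM, then 35.28, 38.20 and 37.04 FPKM, in Mct1f/f Mb1Cre. It rose by 2.81 ± 0.06 and 2.61 ± 0.05, and Pole, the catalytic subunit, rose by 2.49 ± 0.06 and 2.57 ± 0.06. Pold1, the catalytic subunit of polymerase delta, was the only one of the 43 genes with a lower level on day 3 at an adjusted p under 0.05, at 45.81 and 47.21 FPKM before and 38.34 and 37.96 FPKM after activation in Mb1Cre. The log2 difference was −0.28 ± 0.06 (adjusted p = 0.00130, limma), short of the size limit. In Mct1f/f Mb1Cre libraries Pold1 measured 37.89 and 43.41 FPKM and then 36.25, 38.24 and 38.21 FPKM, with overlapping days and a difference of −0.11 (95% interval −0.23 to 0.02, adjusted p = 0.0910). Its partner Pold2 rose by 1.82 and 1.61 on the log2 scale, so that the ratio of Pold1 to Pold2 went from 2.59 and 2.74 to 0.586 and 0.600 in Mb1Cre and from 2.01 and 2.08 to 0.591–0.615 in Mct1f/f Mb1Cre. Pold3, an accessory subunit of polymerase delta, read 23.92 and 22.87 FPKM on day 0 in Mb1Cre and 23.14 and 24.31 FPKM in Mct1f/f Mb1Cre. It differed by 0.47 and 0.27 between the days, short of the limit in both, though in Mb1Cre it passed (0.51) without day 3 replicate 1.

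Pcna, the sliding clamp, had the highest level of the 43 genes in all 9 libraries. It went from 92.50 and 91.65 FPKM to 293.17 and 293.05 FPKM in Mb1Cre, and 91.98 and 101.98 FPKM, then 292.31, 292.35 and 288.70 FPKM, in Mct1f/f Mb1Cre. The log2 differences were 1.66 ± 0.05 and 1.58 ± 0.04. Among the clamp loader genes, Rfc2, Rfc3, Rfc4 and Rfc5 rose and Rfc1, the large subunit, did not pass. Rfc4 went from 6.42 and 5.36 FPKM to 38.40 and 33.84 FPKM in Mb1Cre and from 7.38 and 8.30 FPKM to 32.18, 34.25 and 33.26 FPKM in Mct1f/f Mb1Cre. Rfc1 read 21.40 and 19.52 FPKM and then 19.95 and 22.74 FPKM in Mb1Cre, where the days overlapped, and 18.62 and 20.18, then 23.48, 22.17 and 22.67 FPKM in Mct1f/f Mb1Cre. Its log2 differences were 0.06 (95% interval −0.10 to 0.21) and 0.22 (0.08 to 0.37), against 2.43 and 1.95 for Rfc4. Rfc2 rose by 0.81 and 0.78, Rfc3 by 1.09 and 1.00 and Rfc5 by 1.71 and 1.86. Within Rfc2 to Rfc5, the small subunits, the ratio of the highest to the lowest mean narrowed from 9.06 to 2.60 in Mb1Cre and from 6.75 to 2.76 in Mct1f/f Mb1Cre, opposite to the spreading of the MCM genes.

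Both genes of Okazaki fragment maturation rose. Lig1, the ligase that seals the fragments, went from 12.01 and 11.53 FPKM to 75.30 and 71.65 FPKM in Mb1Cre and from 11.74 and 13.68 FPKM to 73.16, 70.10 and 74.20 FPKM in Mct1f/f Mb1Cre. Fen1, the flap nuclease, went from 17.32 and 19.05 FPKM to 72.56 and 72.86 FPKM and from 17.42 and 18.50 FPKM to 72.65, 72.09 and 73.58 FPKM. The differences were 2.54 and 2.43 for Lig1 and 1.94 and 1.96 for Fen1 on the log2 scale. The 3 RPA genes, which code for the trimer that coats single strands, changed less. Rpa2 rose most of them, from 14.05 and 15.18 FPKM to 38.37 and 37.30 FPKM in Mb1Cre and from 12.74 and 15.07 FPKM to 35.52, 36.20 and 36.91 FPKM in Mct1f/f Mb1Cre, by 1.32 in each. Rpa1, the large subunit, was already at 42.98 and 42.38 FPKM on day 0 and reached 58.04 and 60.25 FPKM in Mb1Cre, with 39.71 and 43.12 FPKM, then 64.30, 62.85 and 64.91 FPKM, in Mct1f/f Mb1Cre. The RPA levels drew together, with a highest to lowest ratio of 2.92 on day 0 and 1.66 on day 3 in Mb1Cre and of 2.98 and 1.86 in Mct1f/f Mb1Cre. Rpa3 rose by 0.97 in Mb1Cre and by 0.63 in Mct1f/f Mb1Cre, and the latter was 0.48 without day 0 replicate 1.

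The second question was whether the machinery depended on Mct1. On day 3 none of the 43 genes was called between the genotypes (limma), against 2.42% of all genes tested, and 9 had an unadjusted p under 0.05, as did 29% of all genes. The median log2 difference, Mct1f/f Mb1Cre minus Mb1Cre, was −0.04, against −0.01 for all genes, with 32 genes below 0 and 11 above. All 95% intervals lay inside −0.5 to 0.5 except that of Gins1, whose lower end was −0.51. With no size limit 5 genes, or 11.6%, had an adjusted p under 0.05, all lower. Of all 10823 genes 15.2% did in either direction, 997 lower and 653 higher. The libraries of the genotypes did not overlap for 24 of 43 genes, or 55.8%, 19 lower and 5 higher (Cdc6, Cdt1, Mcm2, Pola2 and Rpa1), against 47.1% of all genes. In the MCM ring, Mcm3, Mcm4, Mcm5, Mcm6 and Mcm7 differed by −0.01 to 0.02, with 95% intervals between −0.12 and 0.13. The remaining subunit, Mcm2, had the highest positive difference of the 43 genes, 0.16 (0.02 to 0.30, adjusted p = 0.116, limma), and its adjusted p was 0.0459 with only the compared groups in the fit. Pcna differed by −0.01 (95% interval −0.11 to 0.09), Fen1 by 0.00 (−0.10 to 0.11) and Lig1 by −0.02 (−0.15 to 0.11).

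**Figure D3:**
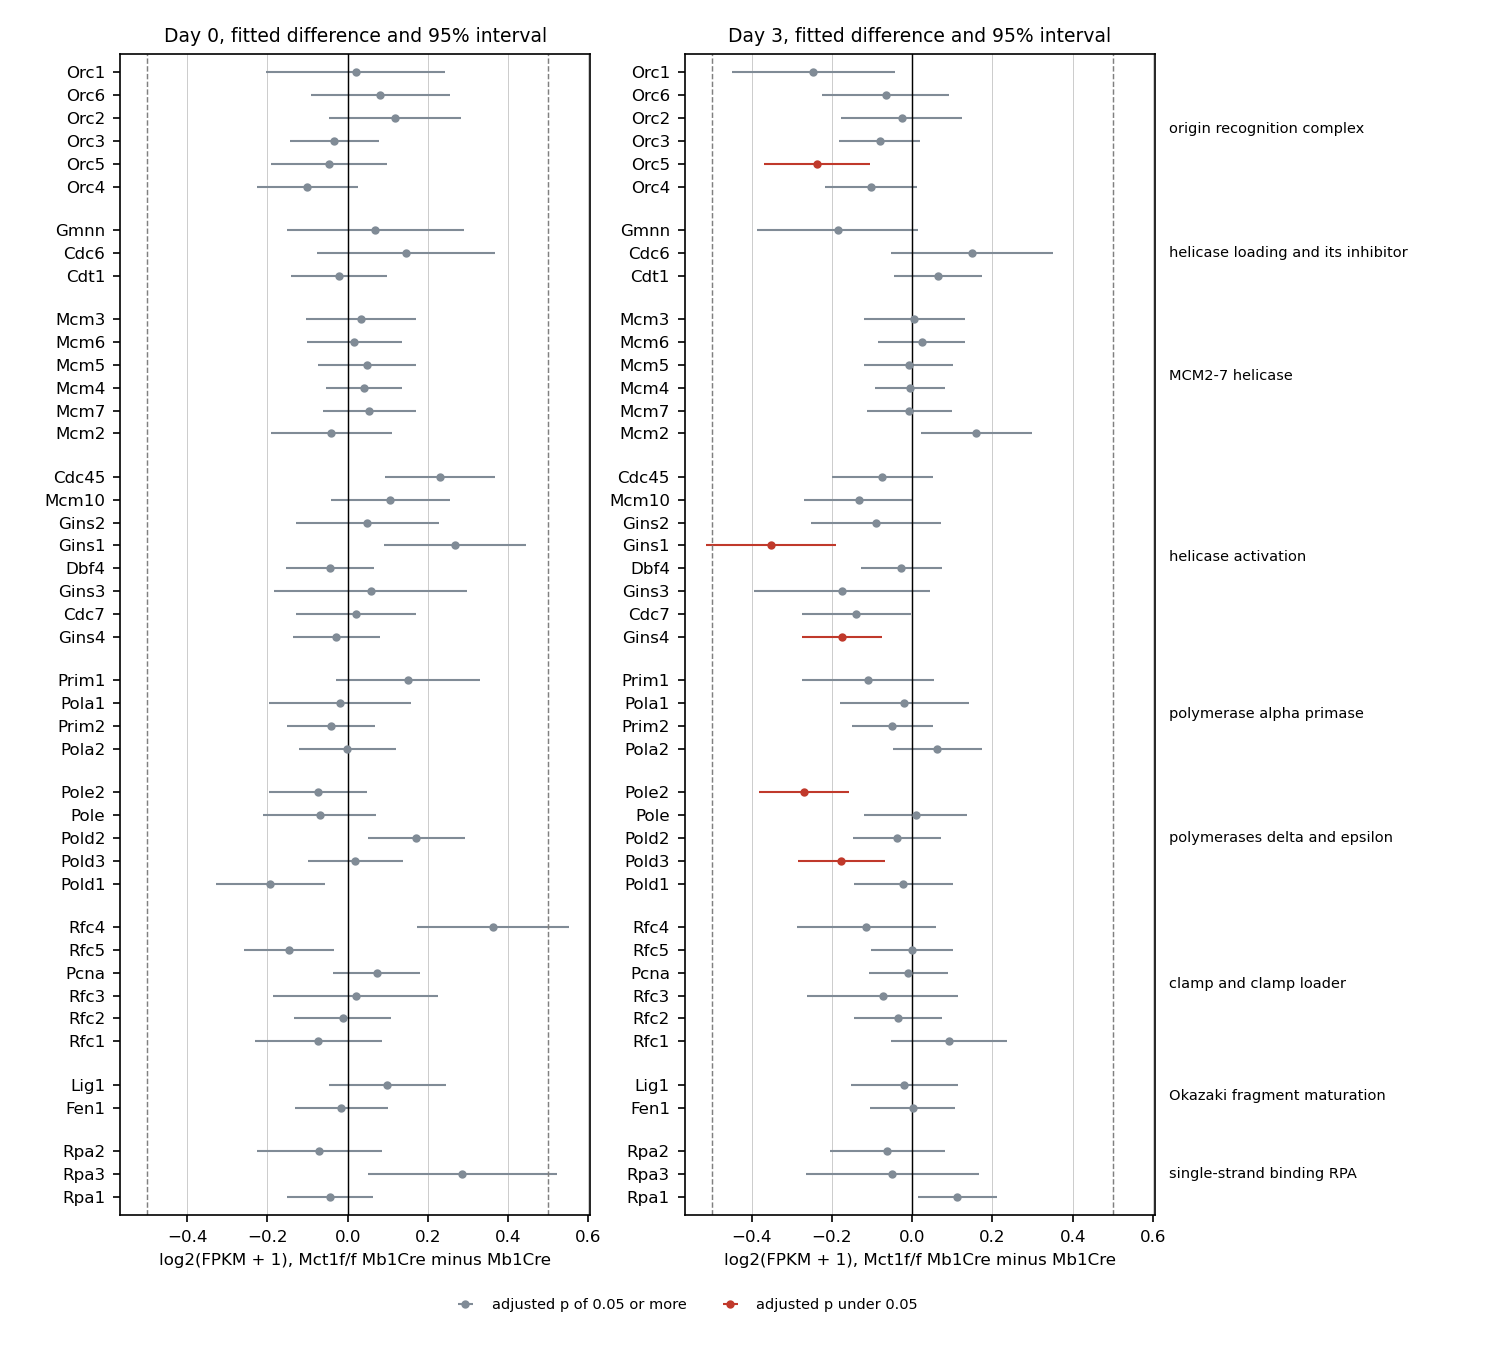
Fitted Mct1f/f Mb1Cre minus Mb1Cre difference of log2(FPKM + 1) with its 95% interval for each gene, on day 0 (left) and day 3 (right); red marks an adjusted p under 0.05 and dashed lines stand at −0.5 and 0.5. On day 3 the 5 red genes, Orc5, Gins1, Gins4, Pole2 and Pold3, all lie below 0, and on day 0 no gene is red.

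The 5 genes with an adjusted p under 0.05 on day 3 belonged to ORC, GINS and the polymerases. Pole2 had the smallest p: its Mct1f/f Mb1Cre libraries, at 35.28 to 38.20 FPKM, all lay below the 45.89 and 43.31 FPKM of Mb1Cre, at 82.6% of the mean, a log2 difference of −0.27 ± 0.05 (adjusted p = 0.00530, limma). Gins1, a GINS subunit, measured 18.40 and 15.75 FPKM in Mb1Cre and 14.09, 12.58 and 12.74 FPKM in Mct1f/f Mb1Cre, or 76.9% of the mean, the largest of these differences at −0.35 ± 0.07 (adjusted p = 0.00905, limma). Orc5, a core ORC subunit, measured 16.81 and 15.82 FPKM on day 3 in Mb1Cre and 13.72, 14.45 and 12.92 FPKM in Mct1f/f Mb1Cre (−0.24 ± 0.06, adjusted p = 0.0231, limma), after 15.12 and 13.96 FPKM and 14.27 and 13.79 FPKM on day 0. None of the 5 genes had overlapping libraries on that day, and 47.1% of all genes had none either. The 5 genes were picked by their p in these same libraries, so this adds no support. Gins4 differed by −0.18 ± 0.04 (adjusted p = 0.0243, limma) over the values given above. Pold3 measured 31.67 and 33.83 FPKM in Mb1Cre and 29.78, 28.05 and 28.70 FPKM in Mct1f/f Mb1Cre, a difference of −0.18 ± 0.05 (adjusted p = 0.0346, limma). Without Mb1Cre day 3 replicate 1 none of the 43 genes had an adjusted p under 0.05, and these 5 had 0.0662 to 0.186, with differences between −0.25 and −0.16; the lone library left in that group is then assumed to vary like the other groups. Without Mct1f/f Mb1Cre day 3 replicate 3, or without Mb1Cre day 3 replicate 2, 2 genes passed, and 3 did without Mct1f/f Mb1Cre day 3 replicate 1.

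**Figure D4:**
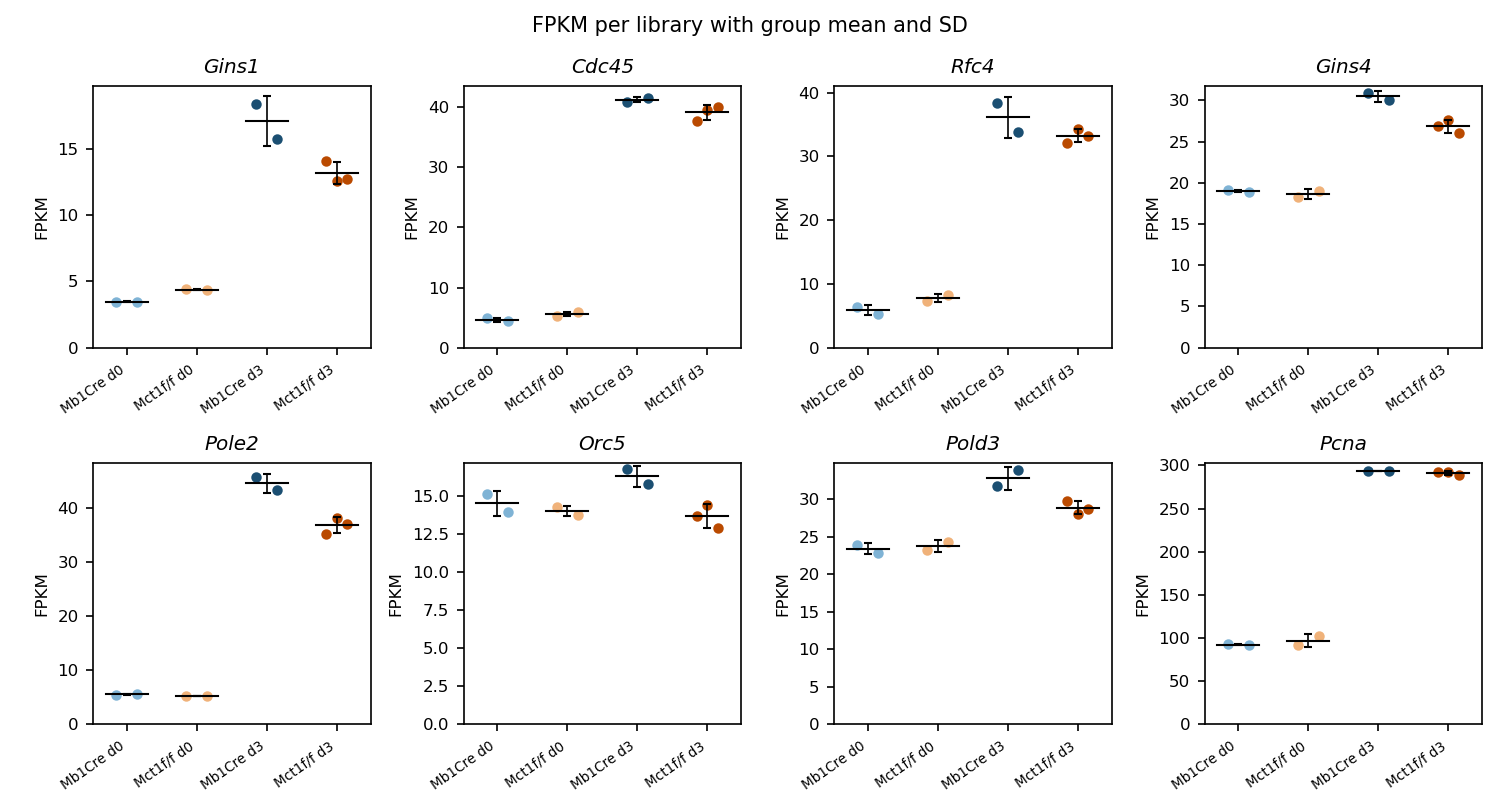
FPKM in each library (points) with the group mean and SD (lines) for the genes with an adjusted p under 0.05 between the genotypes on day 3 or for the interaction, and for Pcna. The day 3 points of Gins1, Pole2, Orc5, Gins4 and Pold3 do not overlap between the genotypes, Rfc4 does overlap on day 3, and Pcna differs little on either day.

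Before activation the machinery did not separate the genotypes beyond the test's threshold. On day 0 none of the 43 genes was called or had an adjusted p under 0.05 (limma), against 0.277% of all genes called, and 7 had an unadjusted p under 0.05, as did 11.7% of all genes. The libraries of the genotypes did not overlap for 12 genes, or 27.9% (5 higher and 7 lower in Mct1f/f Mb1Cre), against 38.4% of all genes. The largest difference was that of Rfc4, at 6.42 and 5.36 FPKM in Mb1Cre and 7.38 and 8.30 FPKM in Mct1f/f Mb1Cre, or 0.36 on the log2 scale (95% interval 0.17 to 0.55, adjusted p = 0.162, limma). Rpa3 (0.29), Gins1 (0.27) and Cdc45 (0.23) followed, and Pold1 was lowest at −0.19. Replicate 1 of Mct1f/f Mb1Cre day 0 differed in Ddx3y and had the highest myeloid and erythroid sums. Its sum over the 43 genes was the lowest on day 0 (757 FPKM, against 775 to 830 FPKM in the other day 0 libraries). A link between these was not tested.

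The interaction asked whether activation changed a gene by unlike amounts in the genotypes. Of the 43 genes, 1 was called, Gins1, against 3.23% of all genes, and 3 had an adjusted p under 0.05, or 6.98%, against 9.42% of all genes (limma). The shares of all genes cover both directions, while those of the 43 genes were all negative. Of all 10823 genes, 240 were called negative and 110 positive, and 607 were negative and 413 positive by adjusted p alone. Gins1 stood at 3.43 and 3.48 FPKM in Mb1Cre on day 0 and at 4.40 and 4.33 FPKM in Mct1f/f Mb1Cre. The order of the genotypes on day 0 was thus the opposite of that on day 3, but the day 0 difference had an adjusted p of 0.248 (limma). Gins1 rose by 2.02 ± 0.08 in Mb1Cre and by 1.40 ± 0.07 in Mct1f/f Mb1Cre, an interaction of −0.62 ± 0.11 (adjusted p = 0.00741, limma), or 4.94-fold against 3.01-fold in mean FPKM. The adjusted p for Gins1 was under 0.05 in all 21 alternatives run, at most 0.0356, but the interaction was −0.43 with a pseudocount of 5, short of the size limit, and it would not pass a limit of 1. Rfc4 rose by 2.43 in Mb1Cre and 1.95 in Mct1f/f Mb1Cre (interaction −0.48 ± 0.12, adjusted p = 0.0303, limma), a difference that came mostly from day 0. Cdc45 rose by 2.91 and 2.60 (interaction −0.30 ± 0.08, adjusted p = 0.0473, limma). The last pair were short of the size limit, and their adjusted p was under 0.05 in 11 and 7 of the 21 alternatives. These counts and that of Gins1 include the alternatives that changed only the size limit, where the adjusted p could not change. Of the 5 genes that were lower on day 3, Pole2, Orc5, Gins4 and Pold3 had interactions of −0.20 to −0.15 with adjusted p of 0.122 to 0.211, so their differences on day 3 were not shown to arise with activation.

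Other replication genes, from lists of 49 genes around the fork, were counted in the same way. In Mb1Cre 29 rose and 5 fell, and in Mct1f/f Mb1Cre 28 rose and 5 fell, with medians of 0.99 and 0.83 on the log2 scale, against 1.69 and 1.52 for the 43 genes. Of all 10823 genes, 2687 rose and 3571 fell in Mb1Cre, and 2532 rose and 3588 fell in Mct1f/f Mb1Cre. All 6 genes of deoxynucleotide supply and all 4 of histone deposition at the fork rose in both genotypes. Rrm2, the regulated subunit of ribonucleotide reductase, rose most on the log2(FPKM + 1) scale, by 3.01 in Mb1Cre and 2.72 in Mct1f/f Mb1Cre, followed by Chaf1a, a subunit of the chromatin assembly factor CAF-1, by 2.70 and 2.58. Of 6 genes for replication of mitochondrial DNA none rose, 2 fell in Mb1Cre and 1 in Mct1f/f Mb1Cre. Of 9 repair and translesion polymerases 2 rose and 3 fell in each genotype, close to the shares of all genes. Among them were the largest falls, those of Polm, a polymerase of end joining (−1.30 and −1.46), and Poli, a translesion polymerase (−0.71 and −0.89). Between the genotypes on day 3, 1 of the 49 was called, against 2.42% of all genes, and 7 had an adjusted p under 0.05 (limma), against 15.2% of all genes. Tyms, thymidylate synthase, held 4.58 to 5.82 FPKM in the day 0 libraries, and on day 3 it measured 32.29 and 30.26 FPKM in Mb1Cre and 20.83, 20.67 and 20.60 FPKM in Mct1f/f Mb1Cre, or 66.2% of the mean (−0.57 ± 0.06, adjusted p = 0.000131, limma). Short of the size limit, Polk (−0.47), Polm (−0.26), Asf1a (−0.23), Mtbp (−0.22) and Donson (−0.20) were lower and Twnk (0.20) was higher at an adjusted p under 0.05. For the interaction 6 of the 49 had an adjusted p under 0.05 (limma), 5 negative and 1 positive, against 9.42% of all genes. Tyms (−0.78, adjusted p = 0.000637, limma) and Polk (−0.56, adjusted p = 0.0245, limma) were called, against 3.23% of all genes. Rrm2 (−0.30, adjusted p = 0.00999, limma) was among those short of the size limit. Set beside these, the largest genotype difference within the 43 genes, that of Gins1, was smaller than that of Tyms on both measures.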

How the data were processed

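RNA was measured by sequencing in primary splenic B cells, in 9 libraries, whose 4 groups follow the labels. FPKM were deposited by the authors, 1 row per gene and 1 column per library, rounded to 2 decimals; their processing notes name Bowtie2 and the builds GRCm38 and mm10, and how fragments were counted is not given in the sources used here. The sums of FPKM per library ran from 477079 to 563586, the depth is unknown, and each group's 2 or 3 libraries set the precision.

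From the deposited FPKM, log2(FPKM + 1) was computed for genes whose mean over the 9 libraries reached 1 FPKM, 10823 in all; all 43 replication genes passed this filter. The pseudocount understates changes of low genes. limma 3.58.1 in R 4.3.3 fitted 4 group means, with a trend and Benjamini-Hochberg adjustment over all genes tested, for 5 comparisons. The fit was run on simulated data for the genotype comparison on day 3 only. The planted changes were larger than any day 3 genotype difference of the 43 genes. Smaller changes and the interaction were not simulated. Errors beside log2 differences are SE, and intervals are 95%.

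Values in every library are given for the genes with the largest and smallest Mb1Cre activation change in each role, those with an adjusted p under 0.05 between genotypes or for the interaction, and Pcna, Gmnn, Cdt1, Cdc6 and Orc1. Other genes of the 43 are named where a group is described. Of other replication genes, the 2 largest and 2 smallest activation changes and those that differed between genotypes were to be named, the latter at most 6; Twnk makes it 7 and was added after its value was seen. The members and lists were chosen with earlier results of these data known. Alternatives covered pseudocount, filter, scaling, samples in the fit, trend, size limit, a replicate block and each library left out. Promoter sequences are RefSeq's. Figures were drawn with matplotlib 3.10.9. One marker gene, and the sum it entered, is not reported here.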

Additional observations from a re-analysis of the deposited data

Results flagged for a closer look

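Of the 43 replication genes, 3 showed an activation change that differed between the genotypes by the test of the difference itself (limma, interaction of genotype and day), or 6.98% against 9.42% of all genes. The latter share covers both directions, with 607 of 10823 genes negative and 413 positive. The interaction was −0.62 on the log2 scale for Gins1 (adjusted p = 0.00741), −0.48 for Rfc4 (adjusted p = 0.0303) and −0.30 for Cdc45 (adjusted p = 0.0473), each with a smaller rise in Mct1f/f Mb1Cre. The adjusted p stayed under 0.05 in 21, 11 and 7 of 21 alternatives, respectively. Among these are the alternatives that changed only the size limit, where the adjusted p could not change. For Gins1 the libraries of the genotypes did not overlap on either day, lower on day 3 and higher on day 0 in Mct1f/f Mb1Cre. Of all genes, 47.1% did not overlap on day 3 and 38.4% on day 0. The day 0 difference of Gins1 had an adjusted p of 0.248 (limma). For Rfc4 and Cdc45 the genotypes differed by 0.36 and 0.23 on day 0 and by −0.11 and −0.07 on day 3. Replicate 1 of Mct1f/f Mb1Cre day 0 stood apart from the other day 0 libraries in Ddx3y, and without it the interaction of Gins1 was −0.61 (adjusted p = 0.0220, limma).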

How the results depend on the processing

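The counts of genes called on activation ranged from 29 to 40 in Mb1Cre and from 30 to 40 in Mct1f/f Mb1Cre over all alternatives, with 29 and 30 at a log2 limit of 1 and 40 in each with no limit. Over the 3 scalings they were 33 to 38 and 32 to 37, and with 1 library left out 35 to 36 and 33 to 36. No gene was called between the genotypes on either day under any alternative that kept a size limit, and with no limit 5 were on day 3. For the interaction the count of 1 became 2 with a pseudocount of 0.1, 0 with a pseudocount of 5, 0 at a log2 limit of 1 and 3 with no limit, and 1 to 2 with 1 library left out. It was 2, with Rfc4 the second, without Mb1Cre day 0 replicate 1, Mb1Cre day 3 replicate 2 or Mct1f/f Mb1Cre day 0 replicate 1. Some directions reversed: with libraries scaled to the same total the activation difference was −0.18 for Orc4 and −0.034 for Orc5 in Mb1Cre and −0.16 for Orc4 and −0.0073 for Cdt1 in Mct1f/f Mb1Cre, and with median-of-ratios scaling it was 0.17 for Orc5 in Mct1f/f Mb1Cre. These scalings moved the median of all genes, −0.12 and −0.14 as reported, to −0.31 and −0.30 and to 0.06 and 0.06, and quantile normalization moved it to 0.02 and 0.03. Of 4687 single values under an alternative, 4627 kept their side of the threshold without a counted reversal, and 5 reversed. A reversal was counted only where the adjusted p was under 0.05 in the main fit or the alternative (limma). Smaller differences changed sign uncounted, such as that of Cdc7 between the genotypes on day 0, which ran from −0.048 to 0.091. No clear pairing by replicate number was seen. Deviations of same-numbered libraries correlated at −0.122 in Mb1Cre and at 0.0533 and 0.0642 in Mct1f/f Mb1Cre. Groups of 2 or 3 libraries are too small for such values to exclude a pairing. With the replicate block the counts were 35, 35, 0, 0 and 1, as without it, and a crossed numbering in Mb1Cre, added after seeing the data, gave 35, 35, 0, 0 and 1. Without a size limit the block left 2 of the 5 genes with an adjusted p under 0.05 on day 3, and the crossed numbering left 1. Replicate 3 exists only in Mct1f/f Mb1Cre on day 3, so the block takes that library out of the comparison. Leaving it out without a block also left 2, so pairing and the loss of that library cannot be told apart. Using only the groups compared was not run for the interaction. Depth is unknown, so counting error could not be set beside any value.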
